A study of Bos taurus with 12 samples.

Results

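TNF, the 5 NF-kB subunit genes and 4 genes of the feedback that NF-kB sets on itself were followed in bovine corpora lutea after PGF2α, the prostaglandin that ends the life of the gland. The 10 genes were picked by symbol from the 27270 genes in the tables, and each matched 1 row. They were the cytokine gene TNF and the subunit genes NFKB1, NFKB2, REL, RELA and RELB. The others were NFKBIA and NFKBIZ of the IkB family, and TNFAIP3 and BIRC3, which act on the ubiquitin chains of TNF signalling. RNA of the whole gland was sequenced from 12 cows of mixed breed with synchronised estrous cycles, all at day 10 of the cycle, the mid-luteal phase. A luteolytic dose of PGF2α was given i.m. to 8 cows, whose corpora lutea were collected after 4 h (n = 4) or 12 h (n = 4). The other 4 cows received saline (control), for which the labels give no hour. Each cow gave 1 library and is named by its number, so the cow is the replicate.

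NF-kB is a pair of proteins of the Rel family. RELA, RELB and REL (c-Rel) carry a domain that activates transcription, whereas NFKB1 and NFKB2 encode precursors that are processed to p50 and p52. Inhibitors of the IkB family hold the pairs in the cytoplasm until a signal such as TNF binding its receptor leads to their breakdown, and NF-kB then switches on genes that stop it, among them NFKBIA and TNFAIP3. In the corpus luteum TNF is known as a product of immune cells that act on steroidogenic and endothelial cells during regression.

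Total expected counts per library were 15527149 to 22352909 at 4 h, 12471493 to 17880450 at 12 h and 10263310 to 22600213 in controls. An expected count is an estimate of the reads of a gene and need not be whole. TPM scales these to transcript length and to a fixed library total, and serves below for levels. Fold changes and adjusted p values are from edgeR's quasi-likelihood test on rounded counts with TMM scaling, adjusted by the Benjamini-Hochberg method over the 14481 genes with enough counts, and "rose" and "fell" are used of an adjusted p under 0.05. TPM of single genes was also compared by exact two-sided permutation tests, which for 4 cows against 4 cannot go below p = 0.0286. The 2 scales part at 12 h. For 12 h against control, TMM scaling put the median log2 fold change of all genes at 0.01 and log2(TPM + 1) put it at -0.25. The TPM-weighted mean of transcript length was 1700 ± 54.2 bases at 4 h, 1479 ± 69.7 at 12 h and 1682 ± 41.9 in controls (n = 4 each, SD). TPM of the 12 h cows other than cow6314 thus runs lower than their TMM-scaled counts. The mean length was 1577 bases in cow6314, against 1413 to 1464 in the other 12 h cows. Both scales are given where they part.

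The tissue was also followed by marker genes, because NF-kB genes are expressed by leukocytes as well as by luteal cells. Of 12 macrophage and monocyte markers 1 rose at 4 h and 7 rose at 12 h, and none fell (edgeR). Their summed TPM was 225.3 to 431.3 at 4 h, 443.5 to 699.7 at 12 h and 183.0 to 534.1 in controls, with no marker at 0 throughout a group. Of the 6 neutrophil markers with enough counts 1 rose at 4 h and 5 at 12 h, and the summed TPM of the 8 in the tables was 28.8 to 136.8 at 4 h, 86.2 to 258.6 at 12 h and 14.2 to 33.6 in controls. MPO was at 0 in all 4 h and all control cows and ELANE in all 12 h cows. Of 11 T and NK lymphocyte markers with enough counts none passed the test at 4 h. At an unadjusted p under 0.05, 7 of them were lower at 4 h, with no share of all genes counted at that threshold. At 12 h 2 rose, GZMA and NKG7. The median log2 fold change of the 11 was -0.99 at 4 h and -0.32 at 12 h. Of 8 steroidogenic luteal genes 2 fell at 4 h and 6 at 12 h. Their summed TPM was 29121 to 33999 at 4 h, 14781 to 27107 at 12 h and 30916 to 48021 in controls. Much of these sums was OXT, a peptide hormone gene that did not fall. Its mean was 10225 TPM at 4 h, 14311 at 12 h and 11337 in controls. STAR had 974 ± 463 TPM at 12 h and 6912 ± 1532 in controls (n = 4 each, SD). It was at 426 TPM or more in every cow, so the luteal identity of the tissue was plain in every library. Over all genes tested 8.65% rose and 5.59% fell at 4 h, and 23.6% rose and 25.3% fell at 12 h, beside which the marker counts at 12 h are to be read. The macrophage markers that rose at 12 h were 58.3% of those tested, the neutrophil markers 83.3% and the T and NK markers 18.2%, and the steroidogenic genes that fell were 75.0%. The part of the cell makeup in the values below was not tested, and in whole tissue fewer cells of a type and less RNA per cell cannot be told apart.

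A few cows stood apart within their groups for these genes. In TPM control cow6464 was the highest of its group in 8 of the 10 genes, cow6314 the highest of the 12 h cows in 10 of 10, and cow6456 the highest of the 4 h cows in 5 of 10. The same 3 cows had the highest summed TPM of macrophage markers in their groups, 534.1 in control cow6464, 699.7 in 12 h cow6314 and 431.3 in 4 h cow6456. They also differed from their groups in other ways. In cow6314 the summed TPM was 826.0 for the 10 endothelial markers, against 408.1 to 455.4 in the other 12 h cows, and 14781 for the steroidogenic genes, against 23276.5 to 27107. Mitochondrially encoded genes took 7.22% of its counts, against 12.4% to 14.1% in the other 12 h cows. Its TPM-weighted mean of transcript length also lay apart, as given above. In TMM-scaled CPM cow6314 was the lowest of the 12 h cows for NFKB2 and was not the highest for BIRC3. In cow6464 the 12 T and NK markers summed to 134.2 TPM, against 31.8 to 52.8 in the other controls, and in cow6456 the 8 neutrophil markers summed to 136.8 TPM, against 28.8 to 59.4 in the other 4 h cows. The part of these differences in the results was not tested. Results that turn on one of them are given with and without it.

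All 10 genes had enough counts for the test. At 4 h against control, NFKB1 and RELB rose and none fell, which is 2 of 10 genes (3 at an unadjusted p under 0.05) against 14.2% of all genes tested (8.65% higher and 5.59% lower). At 12 h against control, NFKBIA, NFKBIZ and RELA rose and NFKB1 fell, 4 of 10 against 48.9% of all genes (23.6% higher and 25.3% lower). At 12 h against 4 h, NFKB1 fell and none rose, 1 of 10 (7 at an unadjusted p under 0.05) against 46.7% of all genes (22.5% higher and 24.3% lower). These percentages are at the adjusted threshold, and the share of all genes at the unadjusted one was not counted. The share of these genes called was thus close to that of all genes at 4 h and no higher than it in the other comparisons. The median log2 fold change of the 10 genes was 0.41 at 4 h, 0.13 at 12 h and -0.18 between 12 h and 4 h, beside -0.03, 0.01 and 0.02 for all genes. Both times were set against the same 4 control cows. Leaving out 1 cow gave 1 to 3 of the 10 genes at 4 h (1 with any single cow other than cow6464 and cow4291 left out), 3 to 5 at 12 h and 1 to 4 between 12 h and 4 h. The last count was 4 without cow6464 or cow6314, 3 without cow4285 or cow6456 and 2 without cow7514, cow6455 or cow5266. Control cows enter this last comparison only through the fit shared by all groups.

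The scale changed the directions at 12 h. On log2(TPM + 1) with limma, 1 of the 10 genes was called higher and 2 lower at 12 h against control, where edgeR called 3 higher and 1 lower, and over all genes limma called 1509 higher and 5631 lower against 3417 and 3665 with edgeR. For 12 h against 4 h limma called 0 of the 10 genes higher and 4 lower, DESeq2 called 2 higher and 2 lower, and edgeR with an offset for transcript length called 4 higher and 1 lower, where edgeR without it called 0 higher and 1 lower. Over all genes limma called 1304 higher and 5194 lower in that comparison, and DESeq2 3404 and 3796. EdgeR called 3719 and 2873 with the offset and 3252 and 3512 without it. In TPM all 4 cows of one group lay apart from all 4 of the other in 1 of 10 genes at 4 h (1 higher) against 19.0% of all genes (8.31% higher and 10.7% lower). The same was true of 2 of 10 genes at 12 h against control (1 higher and 1 lower) against 44.0% (9.12% higher and 34.9% lower), and of 2 of 10 at 12 h against 4 h (both lower) against 38.9% (8.62% higher and 30.3% lower). Without control cow6464 it was true of 5 genes at 4 h, with 3 without cow4285 and 2 with cow7367, cow4291 or cow6455 left out, and without cow6314 of 5 genes at 12 h against control and 6 at 12 h against 4 h. With fewer cows any gene lies apart more easily, and the share of all genes was not counted with a cow left out.

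**Figure D1:**
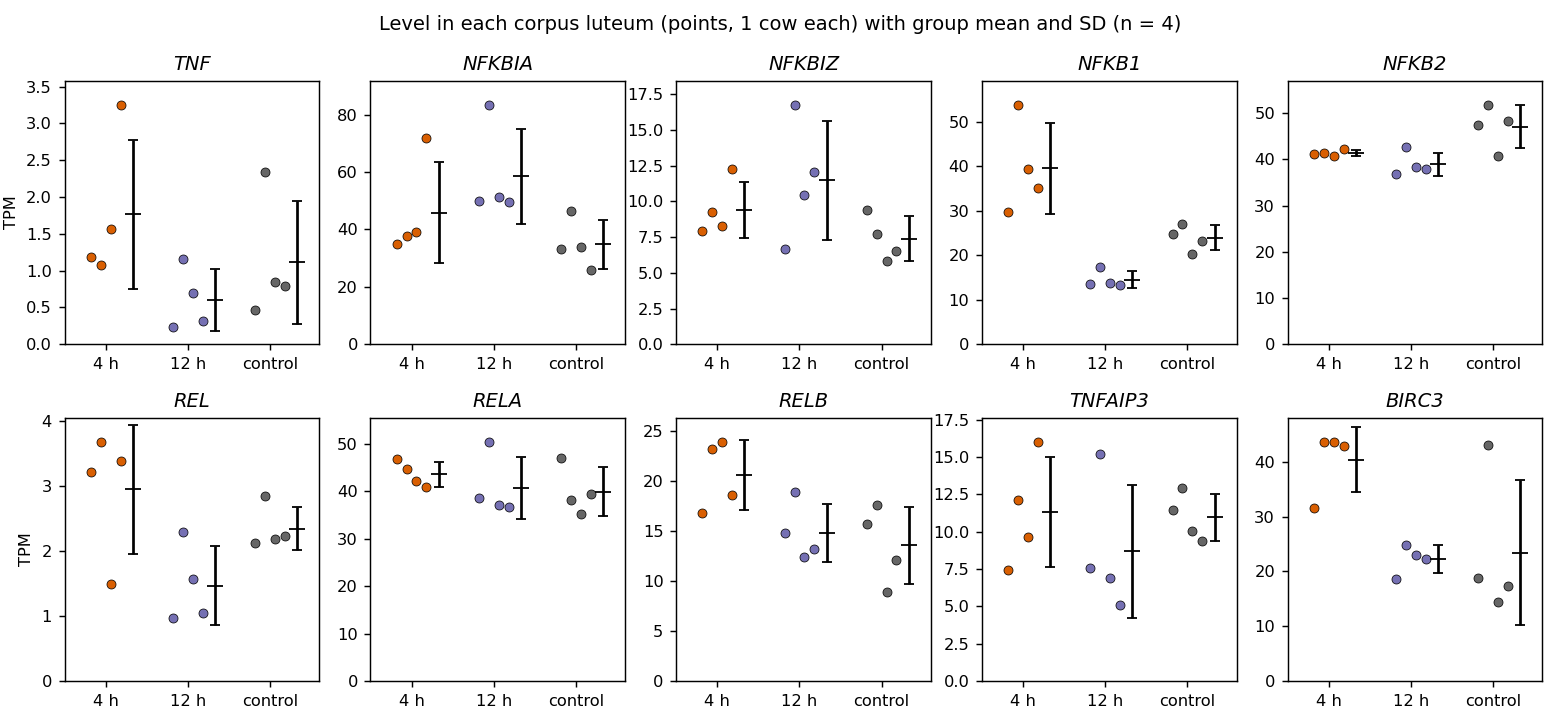
TPM of the 10 genes in each cow, 1 panel per gene with its own axis from 0, for cows 4 h post-PGF2α, 12 h post-PGF2α and control, with a bar at each group mean and a line for the SD (n = 4). NFKB1 is the gene whose 3 groups lie apart, at 29.7 to 53.8 TPM at 4 h, 13.3 to 17.4 at 12 h and 20.4 to 27.1 in controls, and the high BIRC3 value of control cow6464 (42.99 TPM) lies among the 4 h cows.

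TNF was the scarcest of the 10 genes and did not pass edgeR's test in any of the 3 comparisons with all cows in the fit. It lies on chromosome 23 of ARS-UCD1.2 from 27716168 to 27719047. Its TPM was 1.18, 1.07, 1.57 and 3.25 in 4 h cow4291, cow5341, cow6455 and cow6456. It was 0.24, 1.16, 0.69 and 0.32 in 12 h cow5266, cow6314, cow7382 and cow7475, and 0.47, 2.34, 0.85 and 0.79 in control cow4285, cow6464, cow7367 and cow7514. The 4 h cows were all above 3 of the 4 controls, but control cow6464 was higher than 3 of the 4 h cows, so the groups overlapped. These levels rest on few reads, 24 to 53 per cow at 4 h, 5 to 24 at 12 h and 5 to 53 in controls. The 5 counts of control cow4285, the shallowest library, have an exact 95% Poisson interval of 1.62 to 11.7, which covers counting error only.

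TNF had a log2 fold change of 0.63 (edgeR, SE 0.54 and adjusted p = 0.481) at 4 h and -0.64 (edgeR, SE 0.58 and adjusted p = 0.381) at 12 h against control. Between 12 h and 4 h it was -1.27 (edgeR, SE 0.57 and adjusted p = 0.0849). Limma on log2(TPM + 1) gave -0.76 for that difference (adjusted p = 0.0451). Single cows moved these values. At 4 h the value was 1.32 without control cow6464 and 0.21 without 4 h cow6456, and neither passed the test. Without control cow6464 the value at 12 h against control was 0.07 in place of -0.64, and without 12 h cow6314 the difference between 12 h and 4 h was -1.69 and passed the test (edgeR adjusted p = 0.0489).

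NFKB1 moved most clearly among the 5 subunits. It encodes p105, the precursor of p50, and lies on chromosome 6 from 22205847 to 22328613. Its TPM was 29.69, 53.80, 39.42 and 35.14 in the 4 h cows, in the order of cows given for TNF. It was 13.64, 17.37, 13.75 and 13.30 in the 12 h cows and 24.88, 27.11, 20.37 and 23.28 in the controls. Every 4 h cow was above every control and every 12 h cow below, so no groups overlapped in any of the 3 comparisons (p = 0.0286 each by an exact two-sided permutation test, the smallest possible). The means were 39.5 ± 10.3 TPM at 4 h, 14.5 ± 1.91 at 12 h and 23.9 ± 2.83 in controls (n = 4 each, SD).

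At 4 h NFKB1 rose in TMM-scaled counts, with a log2 fold change of 0.76 (edgeR, SE 0.16 and adjusted p = 0.00888), and this rise held in all 9 other fits and with any 1 cow left out. For 12 h against 4 h NFKB1 fell, with a log2 fold change of -1.18 (edgeR, SE 0.16 and adjusted p = 1.45e-04), and that call held in the same way. Its fall at 12 h against control was at the edge of the threshold, with a log2 fold change of -0.42 (edgeR, SE 0.16 and adjusted p = 0.0499). That call was lost with RLE scaling, with a count minimum of 50, with an offset for transcript length (log2 fold change -0.24, edgeR adjusted p = 0.228) and with cow6455 and cow6314 left out together. It was kept with cow7367, cow4291 or cow5341 left out and lost with any other single cow left out, with log2 fold changes of -0.47 to -0.30. On the log2(TPM + 1) scale it was -0.68 (limma adjusted p = 0.00395), where the median of all genes was -0.25.

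RELB, the partner of p52 in the non-canonical branch of the pathway, rose at 4 h. It lies on chromosome 18 from 52695747 to 52724172. Its TPM was 16.76, 23.20, 23.93 and 18.58 at 4 h, 14.79, 18.85, 12.38 and 13.15 at 12 h, and 15.70, 17.59, 8.93 and 12.11 in controls. The 4 h group overlapped the controls by 1 cow, cow4291, which was below control cow6464. At 4 h the log2 fold change was 0.65 (edgeR, SE 0.20 and adjusted p = 0.0491). The call was lost when any 1 cow other than cow6464 and cow4291 was left out (log2 fold changes of 0.50 to 0.73), with no count minimum, with only the groups compared, on both log2 TPM scales and with an offset for transcript length. At 12 h against control the value was 0.43 (edgeR, SE 0.20 and adjusted p = 0.0939), and without control cow6464 it was 0.64 and passed (edgeR adjusted p = 0.0224). Between 12 h and 4 h it was -0.22 (edgeR, SE 0.20 and adjusted p = 0.386).

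RELA, the p65 subunit of the classical p50-p65 pair, rose at 12 h in TMM-scaled counts but not in TPM. The gene is on chromosome 29 from 43830884 to 43840041. It stood at 46.78, 44.68, 42.21 and 40.86 TPM at 4 h, 38.60, 50.51, 37.20 and 36.73 at 12 h, and 47.14, 38.15, 35.15 and 39.43 in controls. In TPM the 12 h cows lay within the range of the controls except cow6314, which was above it. At 12 h the log2 fold change was 0.36 (edgeR, SE 0.08 and adjusted p = 0.00307), and it was 0.02 (limma adjusted p = 0.885) on log2(TPM + 1). The difference between 12 h and 4 h was 0.20 (edgeR, SE 0.08 and adjusted p = 0.0647), 0.35 with an offset for transcript length (edgeR adjusted p = 0.00491) and -0.11 on the log2(TPM + 1) scale (limma adjusted p = 0.493).

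NFKB2, which encodes the p100 precursor of p52, was the most abundant subunit in controls and varied little between cows. It lies on chromosome 26 from 23019572 to 23026090. Its TPM was 41.07, 41.37, 40.65 and 42.26 at 4 h, 36.87, 42.66, 38.28 and 37.94 at 12 h, and 47.52, 51.78, 40.79 and 48.22 in controls. Of the controls 3 were above every treated cow, and cow7367 was not. The log2 fold change was -0.15 (edgeR, SE 0.08 and adjusted p = 0.207) at 4 h and 0.04 (edgeR, SE 0.08 and adjusted p = 0.722) at 12 h, where limma on log2(TPM + 1) gave -0.26 (adjusted p = 0.0233) beside a median of -0.25 for all genes. Between 12 h and 4 h it was 0.19 (edgeR, SE 0.08 and adjusted p = 0.0603), 0.36 with an offset for transcript length (edgeR adjusted p = 0.00377) and -0.09 on the log2(TPM + 1) scale (limma adjusted p = 0.448).

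REL, which encodes c-Rel, the subunit most restricted to lymphoid and myeloid cells, was near the level of TNF. The gene is on chromosome 11 from 43625180 to 43662860. It had 3.22, 3.68, 1.49 and 3.39 TPM at 4 h, 0.97, 2.29, 1.56 and 1.04 at 12 h, and 2.12, 2.84, 2.18 and 2.23 in controls. Of the 4 h cows 3 were above every control and cow6455 was below every control. The log2 fold change was 0.34 (edgeR, SE 0.28 and adjusted p = 0.459) at 4 h, -0.40 (edgeR, SE 0.29 and adjusted p = 0.281) at 12 h and -0.74 (edgeR, SE 0.29 and adjusted p = 0.0525) between 12 h and 4 h. Without cow6455 the last of these was -0.95 (edgeR adjusted p = 0.00903), and DESeq2 called it with all cows (adjusted p = 0.0345). With cow6455 and cow6314 left out together REL passed at 12 h against control (log2 fold change -0.62, edgeR adjusted p = 0.0460) and between 12 h and 4 h (-1.17, edgeR adjusted p = 0.00288). For REL cow6455 was the lowest 4 h cow and cow6314 the highest 12 h cow, so larger falls follow from leaving them out.

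The share of NFKB1 in the subunit mRNA set the 3 groups apart. Each subunit was taken as its share of the summed TPM of the 5 genes in the same cow, which cancels the scale between libraries. A difference that goes with transcript length is not cancelled, here or in the ratios below. NFKB1 had the longest transcripts of the 5, with a mean of 3901 to 3918 bases against 2197 to 3114 in the others. With an offset for transcript length its log2 fold change at 12 h against control was -0.24 (edgeR adjusted p = 0.228). These shares and the ratios below were chosen after the values were seen and are given with no test. NFKB1 held 26.4% ± 4.45 of the subunit mRNA at 4 h, 13.1% ± 0.153 at 12 h and 18.8% ± 0.679 in controls (n = 4 each, SD), with no overlap of the groups. RELA held 29.6% ± 3.09 at 4 h, 36.8% ± 1.11 at 12 h and 31.6% ± 2.80 in controls, and every 12 h cow was above every other cow. NFKB2 was at 28.1% ± 2.48 at 4 h, 35.4% ± 2.24 at 12 h and 37.2% ± 1.76 in controls, with every 4 h cow below every other cow. RELB was at 13.9% ± 1.70 at 4 h, 13.3% ± 1.09 at 12 h and 10.6% ± 1.97 in controls, and the groups overlapped.

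NFKB1 was thus nearly level with NFKB2 at 4 h and well below it at 12 h. The ratio of NFKB1 to NFKB2 was 0.956 ± 0.251 at 4 h, 0.372 ± 0.0249 at 12 h and 0.507 ± 0.0199 in controls (n = 4 each, SD). The summed TPM of the 5 subunits was 148.0 ± 13.2 at 4 h, 110.5 ± 14.2 at 12 h and 126.9 ± 14.2 in controls.

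**Figure D2:**
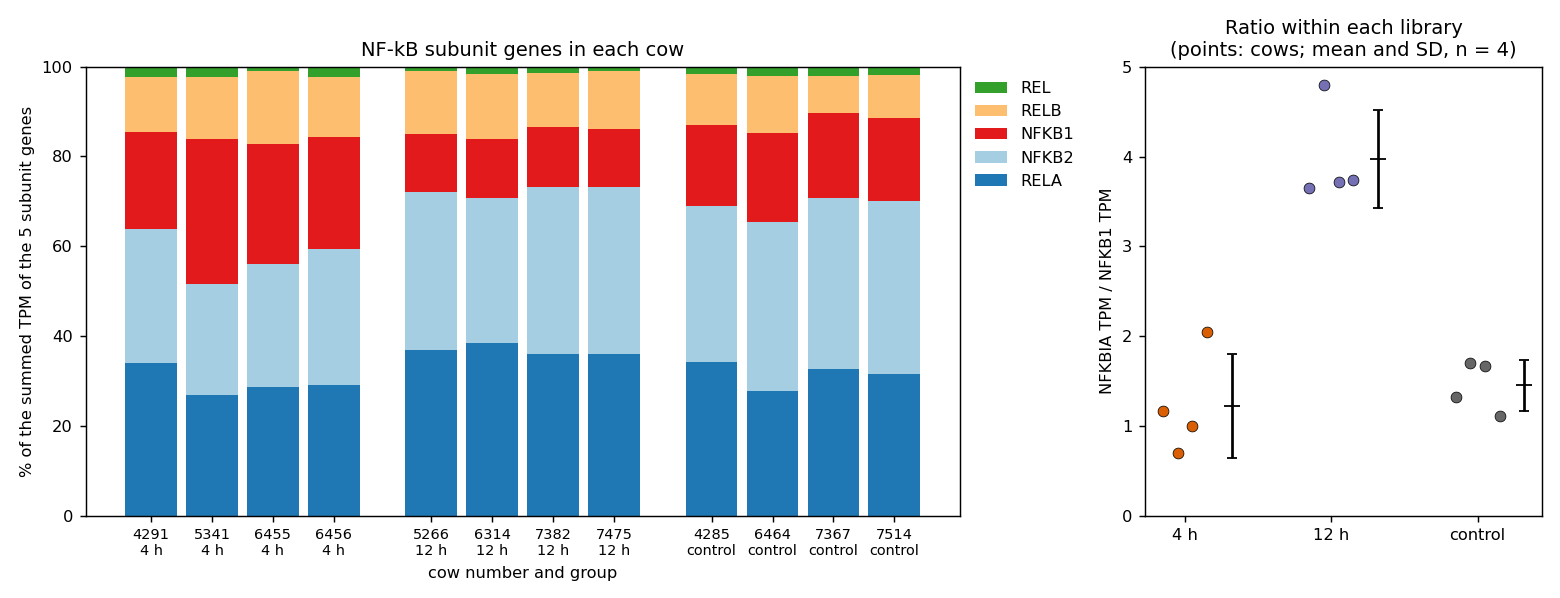
Stacked bars of the share of each of the 5 subunits in their summed TPM, in percent, for each cow, and points for the ratio of NFKBIA to NFKB1 TPM in each cow beside the mean and SD (n = 4), for cows 4 h post-PGF2α, 12 h post-PGF2α and control. The NFKB1 share lies at 21.6% to 32.3% at 4 h, 13.0% to 13.3% at 12 h and 18.1% to 19.7% in controls, and the ratio of NFKBIA to NFKB1 lies at 3.65 to 4.80 at 12 h, above all other cows.

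NFKBIA rose at 12 h. It encodes IkB alpha, the inhibitor that is broken down on activation and made again under NF-kB control, and lies on chromosome 21 from 45639133 to 45643131. Its TPM was 34.74, 37.56, 39.16 and 71.88 at 4 h, 49.81, 83.33, 51.12 and 49.68 at 12 h, and 33.03, 46.26, 34.01 and 25.88 in controls. Every 12 h cow was above every control (p = 0.0286 by an exact two-sided permutation test, the smallest possible), while 3 of the 4 h cows lay within the control range. Of the treated cows, cow6456 was far above the rest of the 4 h group and cow6314 far above the rest of the 12 h group. The log2 fold change was 0.42 (edgeR, SE 0.24 and adjusted p = 0.266) at 4 h and 1.03 (edgeR, SE 0.24 and adjusted p = 0.00358) at 12 h, and the call at 12 h was kept in all 9 other fits and with any 1 cow left out. The difference between 12 h and 4 h was 0.61 (edgeR, SE 0.24 and adjusted p = 0.0504). It was 0.91 (edgeR adjusted p = 0.00373) without 4 h cow6456, and DESeq2 called it with all cows (adjusted p = 0.0347). It was 0.37 on log2(TPM + 1) (limma adjusted p = 0.234), 0.51 without 12 h cow6314 (edgeR adjusted p = 0.111) and 0.42 without both cow6455 and cow6314 (edgeR adjusted p = 0.235).

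Set against NFKB1 in the same library, NFKBIA was higher in every 12 h cow than in any other cow. The ratio of NFKBIA to NFKB1 TPM was 1.23 ± 0.580 at 4 h, 3.98 ± 0.549 at 12 h and 1.45 ± 0.285 in controls (n = 4 each, SD). The 12 h cows lay at 3.65 to 4.80 and every other cow at 0.698 to 2.05. Mean transcript length was 2179 bases for NFKBIA and 3901 to 3918 for NFKB1, and the part of length in this ratio was not tested.

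NFKBIZ encodes IkB zeta, a nuclear member of the IkB family that acts with p50 on a set of secondary response genes in mice and humans. It lies on chromosome 1 from 46190242 to 46201247. Its TPM was 7.93, 9.25, 8.25 and 12.25 at 4 h, 6.69, 16.75, 10.44 and 12.07 at 12 h, and 9.43, 7.72, 5.81 and 6.53 in controls. Of the 12 h cows 3 were above every control, and cow5266 was not, so the groups overlapped. In TMM-scaled counts NFKBIZ rose at 12 h with a log2 fold change of 0.93 (edgeR, SE 0.21 and adjusted p = 0.00329), which was 0.53 (limma adjusted p = 0.0754) on the log2(TPM + 1) scale. At 4 h it was 0.39 (edgeR, SE 0.21 and adjusted p = 0.243), and between 12 h and 4 h 0.54 (edgeR, SE 0.21 and adjusted p = 0.0519), which DESeq2 called (adjusted p = 0.0416). That difference was 0.22 on log2(TPM + 1) (limma adjusted p = 0.480) and 0.34 without both cow6455 and cow6314 (edgeR adjusted p = 0.261). It was 0.74 with an offset for transcript length (edgeR adjusted p = 0.0107).

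TNFAIP3 encodes A20, the enzyme that edits ubiquitin chains to shut off TNF signalling, and is a common readout of NF-kB activity. The gene is on chromosome 9 from 75740934 to 75756753. It had 7.43, 12.13, 9.63 and 16.02 TPM at 4 h, 7.58, 15.17, 6.88 and 5.08 at 12 h, and 11.47, 12.92, 10.06 and 9.34 in controls. The controls spanned 9.34 to 12.92 TPM, with 2 of the 4 h cows inside that span, 1 above and 1 below, and 1 of the 12 h cows above and 3 below. The log2 fold change was 0.08 (edgeR, SE 0.27 and adjusted p = 0.874) at 4 h and -0.06 (edgeR, SE 0.27 and adjusted p = 0.879) at 12 h, and its sign turned with the setting or the cow left out. Between 12 h and 4 h it was -0.14 (edgeR, SE 0.27 and adjusted p = 0.697). The ratio of TNFAIP3 to NFKBIA TPM was 0.251 ± 0.0496 at 4 h, 0.143 ± 0.0334 at 12 h and 0.321 ± 0.0394 in controls (n = 4 each, SD), with every 12 h cow below every other cow. Mean transcript length was 4498 to 4559 bases for TNFAIP3 and 2179 for NFKBIA, and the part of length in this ratio was not tested.

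BIRC3 encodes cIAP2, a ubiquitin ligase that binds TRAF2 at the TNF receptor and opposes cell death. It lies on chromosome 15 from 6392614 to 6406143. Its TPM was 31.47, 43.66, 43.65 and 42.82 at 4 h, 18.68, 24.83, 23.06 and 22.25 at 12 h, and 18.73, 42.99, 14.36 and 17.36 in controls. Every 12 h cow was below every 4 h cow (p = 0.0286 by an exact two-sided permutation test, the smallest possible). Of the controls 3 were at 14.36 to 18.73 TPM, and cow6464 was at the level of the 4 h cows. With all cows BIRC3 did not pass the test, with log2 fold changes of 0.82 (edgeR, SE 0.29 and adjusted p = 0.0771) at 4 h, 0.22 (edgeR, SE 0.29 and adjusted p = 0.542) at 12 h and -0.60 (edgeR, SE 0.29 and adjusted p = 0.105) between 12 h and 4 h.

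All 3 comparisons called BIRC3 without control cow6464. Without it the log2 fold change was 1.33 (edgeR adjusted p = 3.54e-04) at 4 h, 0.76 (edgeR adjusted p = 0.00140) at 12 h and -0.58 (edgeR adjusted p = 0.00384) between 12 h and 4 h. The last value hardly moved from that with all cows. Control cows enter that comparison only through the fit shared by the 3 groups. With all cows DESeq2 called BIRC3 at 4 h (adjusted p = 0.0304), and limma on log2(TPM + 1) called it between 12 h and 4 h (-0.83, adjusted p = 0.0205). The gene BIRC2, which encodes the related cIAP1, had a mean of 57.1 ± 12.1 TPM at 4 h, 15.2 ± 1.58 at 12 h and 19.7 ± 1.25 in controls (n = 4 each, SD). It rose at 4 h with a log2 fold change of 1.58 (edgeR, SE 0.13 and adjusted p = 2.19e-05) and had a log2 fold change of -1.62 for 12 h against 4 h (edgeR, SE 0.13 and adjusted p = 1.04e-05). Expected counts of BIRC3 were not whole in every cow, so reads shared with a near copy may have been divided between genes.

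**Figure D3:**
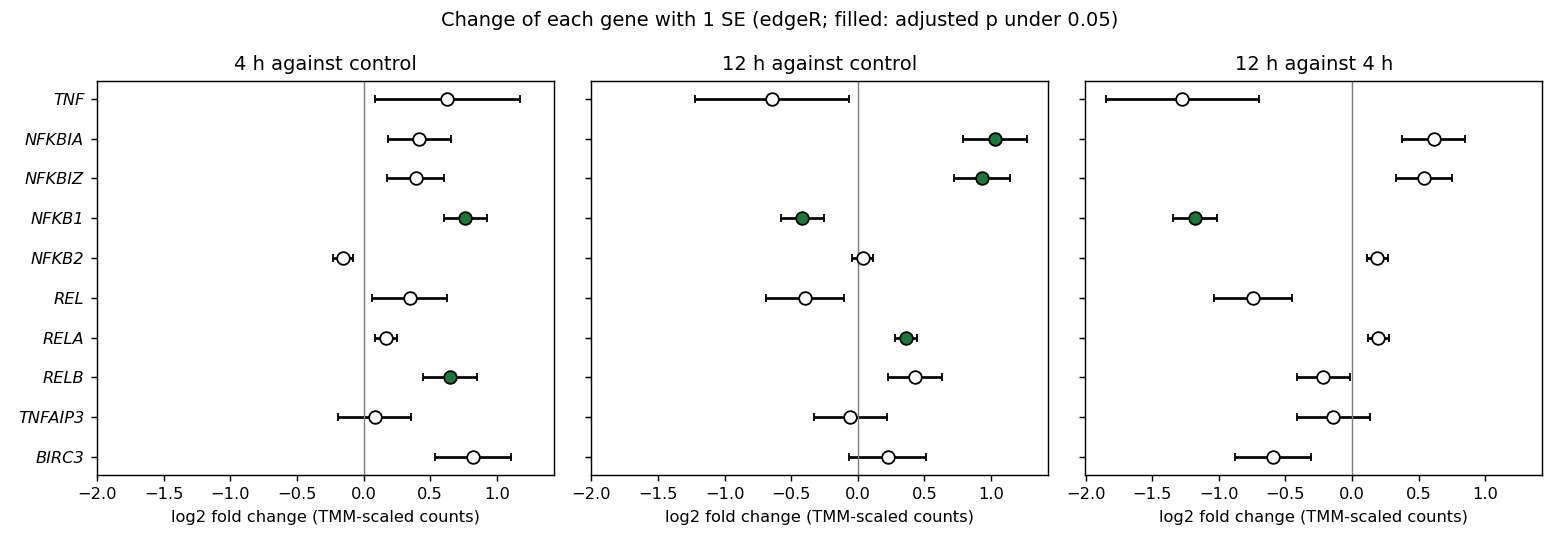
Log2 fold change of the 10 genes from edgeR (TMM-scaled counts), with bars of 1 SE, for 4 h against control, 12 h against control and 12 h against 4 h, with filled points where the adjusted p is under 0.05. NFKB1 is at 0.76, -0.42 and -1.18 and NFKBIA at 0.42, 1.03 and 0.61 in the 3 comparisons, so they moved to opposite sides at 12 h.

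In order of level the controls ran from NFKB2 (47.1 TPM) through RELA (40.0), NFKBIA (34.8), NFKB1 (23.9), BIRC3 (23.4), RELB (13.6), TNFAIP3 (10.9), NFKBIZ (7.37) and REL (2.34) to TNF (1.11 TPM, group means). Each neighbour in this order overlapped the next over the 4 controls except NFKBIZ and REL. At 12 h NFKBIA was first (58.5 ± 16.6 TPM), ahead of RELA (40.8 ± 6.55) and NFKB2 (38.9 ± 2.55). At 4 h NFKBIA, RELA, NFKB2, BIRC3 and NFKB1 lay together, with means of 45.8, 43.6, 41.3, 40.4 and 39.5 TPM, and their ranges over the 4 cows overlapped from each to the next.

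**Figure D4:**
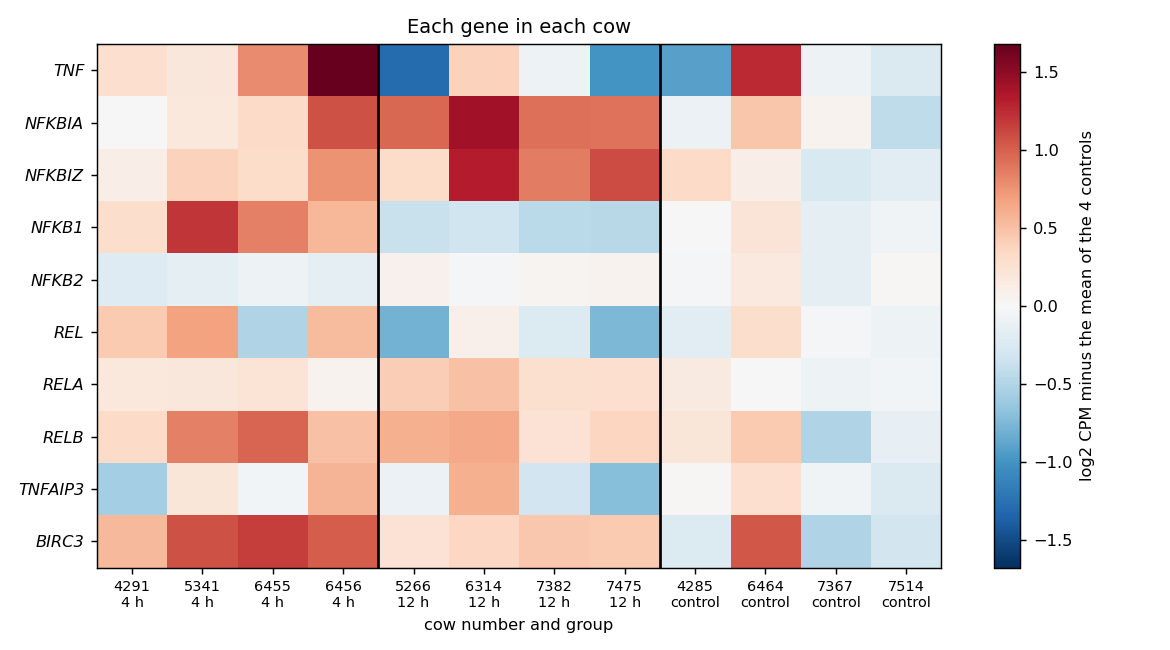
Level of each of the 10 genes in each of the 12 cows as log2 CPM (TMM-scaled) minus the mean of the 4 controls, with cows in columns grouped as 4 h post-PGF2α, 12 h post-PGF2α and control. In TPM cow6314 is the highest of the 12 h cows for 10 of 10 genes and cow6464 the highest of the controls for 8 of 10. In the log2 CPM drawn here cow6314 is the lowest of the 12 h cows for NFKB2 and is not the highest for BIRC3.

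The genes whose pattern over the 12 cows was nearest to that of 3 of the 10 were found by the root mean square difference in log2 CPM, each gene centred on its mean, among 12437 genes. For NFKBIA, whose own values had a root mean square of 0.54, these were TOR4A (0.17), LGMN (0.19) and ADA (0.22). For NFKBIZ, with 0.47 of its own, they were CD99 (0.15), TMEM190 (0.19) and PPP1R18 (0.20), and the nearest of the 10 was NFKBIA at 0.30. TNF had no close match, with 0.86 of its own and distances of 0.52 for RNF150, 0.54 for PTGDR and 0.56 for HS3ST3A1. These are descriptions over 12 cows that share libraries and groups.

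The genes around these 10 in the pathway were followed as lists. Among the ligands and receptors, 10 of 14 had enough counts, and LTA, TNFSF11, CD40LG and TNFRSF13C did not. At 4 h 4 rose and none fell, and at 12 h 5 rose and 1 fell, with median log2 fold changes of 0.22 and 0.40. These 4 of 10 called at 4 h compare with 14.2% of all genes, and 6 of 10 at 12 h with 48.9%. With 1 cow left out 3 to 4 were called at 4 h and 4 to 7 at 12 h. The call of TNFRSF11A at 4 h (edgeR adjusted p = 0.0499) was lost with any single cow other than cow6314 left out. TNFRSF1B, the second TNF receptor, had 49.8 ± 11.5 TPM at 4 h, 36.9 ± 3.34 at 12 h and 19.4 ± 3.80 in controls (n = 4 each, SD), and rose by 1.39 (edgeR, SE 0.18 and adjusted p = 4.19e-04) at 4 h and 1.25 (edgeR, SE 0.18 and adjusted p = 1.51e-04) at 12 h on the log2 scale. TNFRSF1A, the death domain receptor of TNF, had 165.9 ± 6.62 TPM at 4 h, 113.5 ± 11.02 at 12 h and 127.0 ± 16.2 in controls, and rose at 4 h by 0.42 (edgeR, SE 0.09 and adjusted p = 0.00703) on the log2 scale. TNFRSF12A, the receptor of TWEAK, rose by 1.37 at 4 h and 1.05 at 12 h, and ADAM17, the protease that frees TNF from the cell surface, fell at 12 h by 0.93 on the log2 scale (edgeR adjusted p = 0.00107).

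Of 18 adaptors and ubiquitin enzymes 2 rose and 3 fell at 4 h, and 3 rose and 4 fell at 12 h, with medians of -0.04 and 0.03. That is 27.8% called at 4 h against 14.2% of all genes, and 38.9% at 12 h against 48.9%. BIRC2 led the rises at 4 h. TNIP3, a partner of A20, fell at both times, by 3.17 on the log2 scale at 4 h, and was scarce (0.265 ± 0.05 TPM at 4 h, 0.433 ± 0.172 at 12 h and 2.45 ± 1.51 in controls). Of 11 upstream kinases 1 rose and 1 fell at 4 h (1 called with any one of cow6464, cow7367, cow7514 and cow5341 left out), and 5 rose and 3 fell at 12 h (5 called with any one of cow7367, cow7514, cow6314 and cow7475 left out). The share called was 18.2% at 4 h and 72.7% at 12 h, against the same 14.2% and 48.9% of all genes. MAP3K8, the kinase TPL2 that is held by p105, the product of NFKB1, rose by a log2 fold change of 2.14 at 4 h and 2.35 at 12 h (edgeR adjusted p = 0.00175 and 1.85e-04). IKBKB, the kinase that marks IkB alpha for breakdown, rose by 0.69 at 12 h, while TAB3, an adaptor of the TAK1 kinase, fell by 1.77 on the log2 scale.

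The other IkB genes and the genes that act on TNF mRNA were shorter lists. Of 4 other IkB genes 2 rose at 4 h and 2 at 12 h, where 14.2% and 48.9% of all genes were called. Only 1 was called at 4 h with any one of cow4285, cow7367, cow7514, cow5341 and cow6455 left out, and at 12 h with any one of cow7367, cow7514, cow6314, cow7382 and cow7475 left out. BCL3, a nuclear IkB that binds p50 and p52, had 53.7 ± 14.0 TPM at 4 h, 21.7 ± 3.95 at 12 h and 22.6 ± 5.93 in controls, and rose at 4 h by 1.28 (edgeR, SE 0.19 and adjusted p = 0.00116) on the log2 scale. NFKBIB, which encodes IkB beta, rose by 0.55 at 4 h and 0.71 at 12 h. Of 7 genes for the decay and stability of TNF mRNA 3 rose at 4 h, and 2 rose and 1 fell at 12 h (42.9% called each, against 14.2% and 48.9% of all genes). With 1 cow left out 2 to 3 were called at 4 h and 3 to 4 at 12 h. The call of ELAVL1 at 4 h (edgeR adjusted p = 0.0486) was lost in 9 of the 12 fits with 1 cow left out. ZFP36, whose product tristetraprolin speeds the decay of TNF mRNA, had 63.2 ± 19.4 TPM at 4 h, 65.8 ± 17.6 at 12 h and 24.9 ± 4.86 in controls, and rose by 1.38 at 4 h and 1.72 at 12 h on the log2 scale (edgeR adjusted p = 0.00443 and 2.14e-04).

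Of 26 genes listed as NF-kB targets 23 had enough counts, and CCL20, CXCL2 and CSF2 did not. At 4 h 10 rose and 1 fell, at 12 h 8 rose and 2 fell, and between 12 h and 4 h 1 rose and 7 fell. The share called was 47.8% at 4 h against 14.2% of all genes, 43.5% at 12 h against 48.9%, and 34.8% between 12 h and 4 h against 46.7%. Their median log2 fold changes were 0.57, 0.33 and -0.50 in these comparisons, beside -0.03, 0.01 and 0.02 for all genes. CSF1, the growth factor of macrophages, had 54.2 ± 19.8 TPM at 4 h, 6.17 ± 3.48 at 12 h and 7.84 ± 1.94 in controls, and rose at 4 h by 2.84 (edgeR, SE 0.34 and adjusted p = 2.94e-04) on the log2 scale. CCL2, the chemokine that draws monocytes, had 137.6 ± 73.6 TPM at 4 h, 76.6 ± 35.9 at 12 h and 23.1 ± 4.85 in controls, and rose by 2.61 at 4 h and 2.05 at 12 h. SDC4, a heparan sulfate proteoglycan of the cell surface, rose by 2.74 at 4 h and 1.07 at 12 h, IER3, an early response gene, rose by 2.51 at 4 h and 1.42 at 12 h, and GADD45B, a stress response gene, fell by 1.16 at 12 h on the log2 scale.

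**Figure D5:**
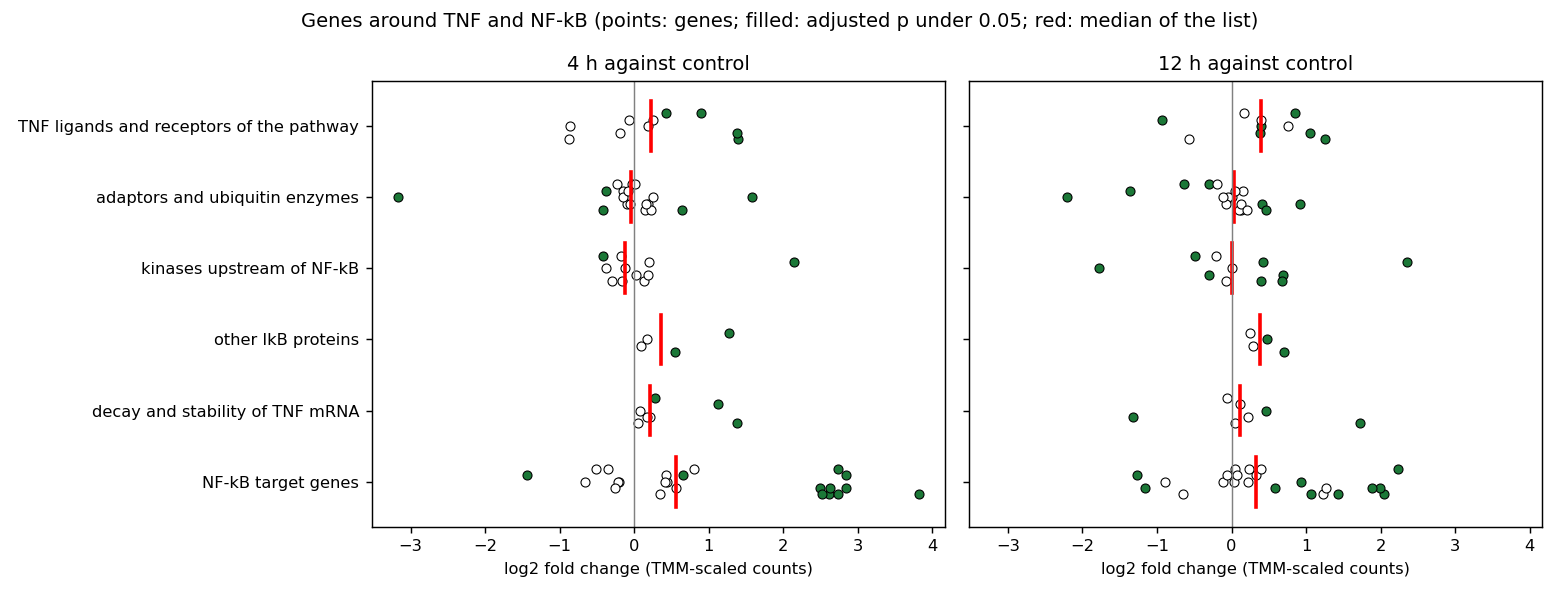
Log2 fold change from edgeR of each gene of the pathway lists, 1 row per list and 1 point per gene, at 4 h and 12 h against control, with a red bar at the list median and filled points where the adjusted p is under 0.05. The list of NF-kB targets has medians of 0.57 at 4 h and 0.33 at 12 h, and the adaptors and ubiquitin enzymes have medians of -0.04 and 0.03.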

How the data were processed

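Whole corpora lutea of 12 cows were sequenced, 1 library per cow (n = 4 per group). The submitters' processing notes name STAR 2.5, RSEM 1.3 and the build ARS-UCD 1.2, with no role or order. The authors deposited 1 table per cow with an expected count, TPM and FPKM for each of 27270 genes. The expected counts deposited are not normalized and need not be whole, TPM is scaled to transcript length and to a library total, and FPKM is scaled to length and depth. Transcript length, in bases, is also in the deposited tables.

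Expected counts were rounded, and genes were kept that had 10 counts or more in 4 or more libraries (14481 genes). Counts were scaled by TMM and fitted by edgeR 4.0.16 (quasi-likelihood test) with all 3 groups together, and the Benjamini-Hochberg method was applied across all genes in each comparison at a threshold of 0.05. Each SE is the log2 fold change over the root of the F statistic, so it holds both counting error and the spread between cows. Members of a marker or pathway list were counted in this fit, with no test of the list. TPM means were compared by exact two-sided permutation tests. Log2 CPM used a prior count of 2.

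The 10 genes and all lists were chosen with earlier results of these data known. All 10 are named, of each list at most 4 called genes per comparison with the smallest p, and for TNF, NFKBIA and NFKBIZ the 3 most similar genes with a mean of at least 1 CPM. The markers MPO, ELANE and OXT are named besides, as are pathway genes with too few counts.

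Alternatives were DESeq2 1.42.0, RLE scaling, a count minimum of 50 or none, only the groups compared, limma 3.58.1 on log2(TPM + 1) and log2(TPM + 0.1), an offset for transcript length (spline with 5 degrees of freedom), each cow left out, cow6455 and cow6314 left out together, and for TPM the FPKM, TMM-scaled CPM and medians. The scripts were tested on simulated counts. R 4.3.3 and Python 3.11.15 were used with scipy 1.17.1, numpy 2.4.6, matplotlib 3.10.9 and pandas 2.3.3. The methods of the study give another number of cows per group than the 4 with tables here, while its figure legend for these data gives 4. Promoter and protein sequences were not analysed here.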

Additional observations from a re-analysis of the deposited data

Results flagged for a closer look

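Single cows lay far from the other 3 of their group in 7 of the 30 groups of TPM values (10 genes in 3 groups), where chance alone flags about 1 group in 20. NFKBIA was at 71.88 TPM in 4 h cow6456 and at 83.33 TPM in 12 h cow6314. In TPM cow6314 also stood apart for NFKB1 (17.37 TPM) and RELA (50.51 TPM). In TMM-scaled CPM its NFKB1 was at 43.6, against 39.9 to 42.6 in the other 12 h cows. Its RELA was at 97.7 CPM, against 84.2 to 92.8. Control cow6464 stood apart for BIRC3 (42.99 TPM) and REL (2.84 TPM), and 4 h cow4291 was low for BIRC3 (31.47 TPM). The 30 groups are not independent, since they come from the same 12 cows.

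The effect at 12 h differed from that at 4 h, by the direct test of 12 h against 4 h in edgeR (adjusted p under 0.05), for 1 of the 10 genes and for 29 of the 73 genes tested in the pathway lists (39.7%, against 46.7% of all genes tested). The values of NFKB1 and of 20 of the 29, at most 4 per list with the smallest p, follow. On the log2 scale these differences were -1.18 for NFKB1, the one gene of the 10. Among ligands and receptors they were -1.19 for ADAM17, -0.26 for TNFRSF1A and 0.57 for TNFSF12. Among adaptors and ubiquitin enzymes they were -1.62 for BIRC2, -1.29 for ITCH, 0.43 for RNF31 and 0.77 for TNIP2. Among kinases they were -1.40 for TAB3, -0.32 for MAP3K7, 0.50 for IKBKB and 0.97 for IKBKE. BCL3, of the other IkB genes, had -1.03. Genes acting on TNF mRNA had -1.50 for RC3H1, -1.01 for ZC3H12A, -0.34 for ELAVL1 and 0.39 for ZFP36L2. Among NF-kB targets they were -2.91 for CSF1, -2.60 for IL1A, -1.67 for SDC4 and -0.90 for GADD45B.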

How the results depend on the processing

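No paired analysis was possible because cow numbers are not shared between groups. The number of the 10 genes called at 4 h (2 in the reported fit) was 1 with no count minimum, with only the groups compared, with an offset for transcript length and with cow6455 and cow6314 left out together, and 1 to 3 with 1 cow left out. At 12 h it was 3 to 5 with 1 cow left out. Between 12 h and 4 h (1 in the reported fit) it was 4 with DESeq2, with a count minimum of 50, with only the groups compared and on both log2 TPM scales, 5 with the offset, 2 with RLE scaling and with both cows out, and 1 to 4 with 1 cow left out. Genes with no overlap in TPM numbered 1 to 5 at 4 h, 2 to 5 at 12 h and 2 to 6 between 12 h and 4 h with 1 cow left out, and 4 between 12 h and 4 h in TMM-scaled CPM. The share of all genes was not counted in these settings.

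Signs turned for genes with small values. With log2(TPM + 1) and log2(TPM + 0.1), NFKB2 was -0.26 and -0.27 at 12 h and -0.086 and -0.088 between 12 h and 4 h, and RELA was -0.11 and -0.11 between 12 h and 4 h. The medians of all genes on these scales were -0.25 and -0.30 at 12 h, and -0.21 and -0.26 between 12 h and 4 h. TNFAIP3 was -9.2e-05 at 4 h on log2(TPM + 0.1), and with the offset -0.013 at 4 h, 0.15 at 12 h and 0.16 between 12 h and 4 h. With 1 cow left out TNF at 12 h ranged over -1.05 to 0.069 and NFKB2 at 12 h over -0.012 to 0.13. TNFAIP3 ranged over -0.097 to 0.27 at 4 h, -0.32 to 0.091 at 12 h and -0.42 to 0.075 between 12 h and 4 h. Of the list counts, ligands and receptors called at 12 h were 3 on both TPM scales, against 6, and other IkB genes called at 12 h were 1 on both TPM scales, with no count minimum, with only the groups compared and with both cows out, against 2. The cause of these differences was not tested. TNF rests on 5 to 53 reads per cow.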
